A study of Mus musculus with 6 samples.

Results

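The transcripts described here are 8 of the 23228 genes in the deposited table, chosen by symbol: 5 genes of the Ly6 family (Ly6a, Ly6c1, Ly6c2, Ly6d and Ly6e) and 3 Ifitm genes (Ifitm1, Ifitm2 and Ifitm3). All 8 were present, and all had a mean of at least 1 FPKM (fragments per kilobase of transcript, scaled by the mapped fragments of the library), the level required for testing. They were measured by RNA sequencing in donor LSK cells, the bone marrow fraction without lineage antigens but with Sca-1 and c-Kit, which holds hematopoietic stem and multipotent progenitor cells. The donors were wild type (WT) and carried Ly5.1. Their cells had been transplanted into Ly5.2 recipients and were sorted 8 weeks later from WT recipients (3 libraries) or from recipients lacking ICAM-1, an adhesion molecule of endothelium and stroma (ICAM-1-/-, 3 libraries). The strain is given as C57BL/6, and the genotype in the sample labels is that of the recipient, not of the sequenced cells. The labels give neither ages nor whether a library came from 1 recipient or from a pool, so p-values measure the spread between libraries, which may be technical.

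Ly6 proteins are small surface proteins that share a fold held by disulfide bonds and are mostly tethered to the membrane by a glycosylphosphatidylinositol (GPI) anchor. Ly6a encodes Sca-1, the antigen by which LSK cells are sorted, and its transcription is induced by interferons in mouse hematopoietic cells. Ly6c1 and Ly6c2 encode the Ly6C antigen of monocytes and some lymphoid and endothelial cells, Ly6d marks lymphoid progenitors that are set on the B lineage, and Ly6e encodes a broadly expressed antigen of thymocytes and progenitors that also limits some virus infections. Ifitm genes encode interferon-induced transmembrane proteins that hinder the fusion of viruses with host membranes, and stem cells express some of them without added interferon.

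The libraries were uneven. Genes listed at 0 numbered 16716 in WT replicate 1 and between 9308 and 12990 in the other 5 libraries, and small RNA genes held 72.1% of the summed FPKM of WT replicate 1 against 38.0% to 55.1% elsewhere. A value of 0 FPKM below means only that the gene was listed at 0 in that library. Of the genes that define the sort, Kit, the c-Kit receptor, was between 6.88 and 44.7 FPKM in the 6 libraries, and Ly6a was listed at 0 in WT replicate 1 and was between 12.4 and 91.8 FPKM in the other 5. Flt3, a cytokine receptor of multipotent progenitors, was between 28.1 and 69.8 FPKM. Of 9 T and NK cell markers, 6 did not exceed 1.99 FPKM in any library, among them the T cell receptor complex genes Cd3d, Cd3e and Cd3g, while Lck was at 16.0 to 48.9 FPKM, Nkg7 at 0 to 194 FPKM and Ncr1 at 0 to 24.2 FPKM. All 9 monocyte and macrophage markers in the table were above 0 in every library, and their summed level was 1214 FPKM in WT replicate 1 and 710.3 FPKM in the first ICAM-1-/- library, with 28.2 to 126 FPKM in the other 4. A second library that stood apart was ICAM-1-/- replicate 2, in which 76.8% of the 10477 tested genes were below WT replicates 2 and 3 and ICAM-1-/- replicate 3. Icam1 itself was between 7.97 and 32.1 FPKM in all libraries and does not check the labels, because the donor cells were wild type.

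No difference between the recipient genotypes passed the test for any of the 8 genes. With limma on log2(FPKM + 1), 0 of 8 passed an adjusted p of 0.05, where 0% of all 10477 tested genes passed, and 0 of 8 had an unadjusted p under 0.05, where 0.515% of all tested genes (54) did. For 0 of 8 genes did the FPKM values of the groups part without overlap, where they parted for 4.08% of tested genes. In a fit blocked on the replicate number, limma called 0 of 8 at an adjusted p under 0.05, beside 0.124% of tested genes, and 2 of 8 (Ifitm1 and Ly6c2) at an unadjusted p under 0.05, beside 2.65%. Ifitm1 and Ly6c2 were both listed at 0 in WT replicate 1. In WT replicate 1, 5 of 8 genes were listed at 0, as were 39.6% of tested genes. In ICAM-1-/- replicate 2, 7 of 8 genes were below WT replicates 2 and 3 and ICAM-1-/- replicate 3, all but Ly6c1, a share to be read against the 76.8% of tested genes given above. Subtracting WT from ICAM-1-/- gave a difference above 0 for 7 of 8 genes over the 6 libraries and for 2 of 8 within replicates 2 and 3. Among all tested genes these differences were above 0 for 53.8% and 30.6%. Adjusted p was 1.00 for each of the 8 genes in the limma fit over the 6 libraries, and it is not repeated below.

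**Figure D1:**
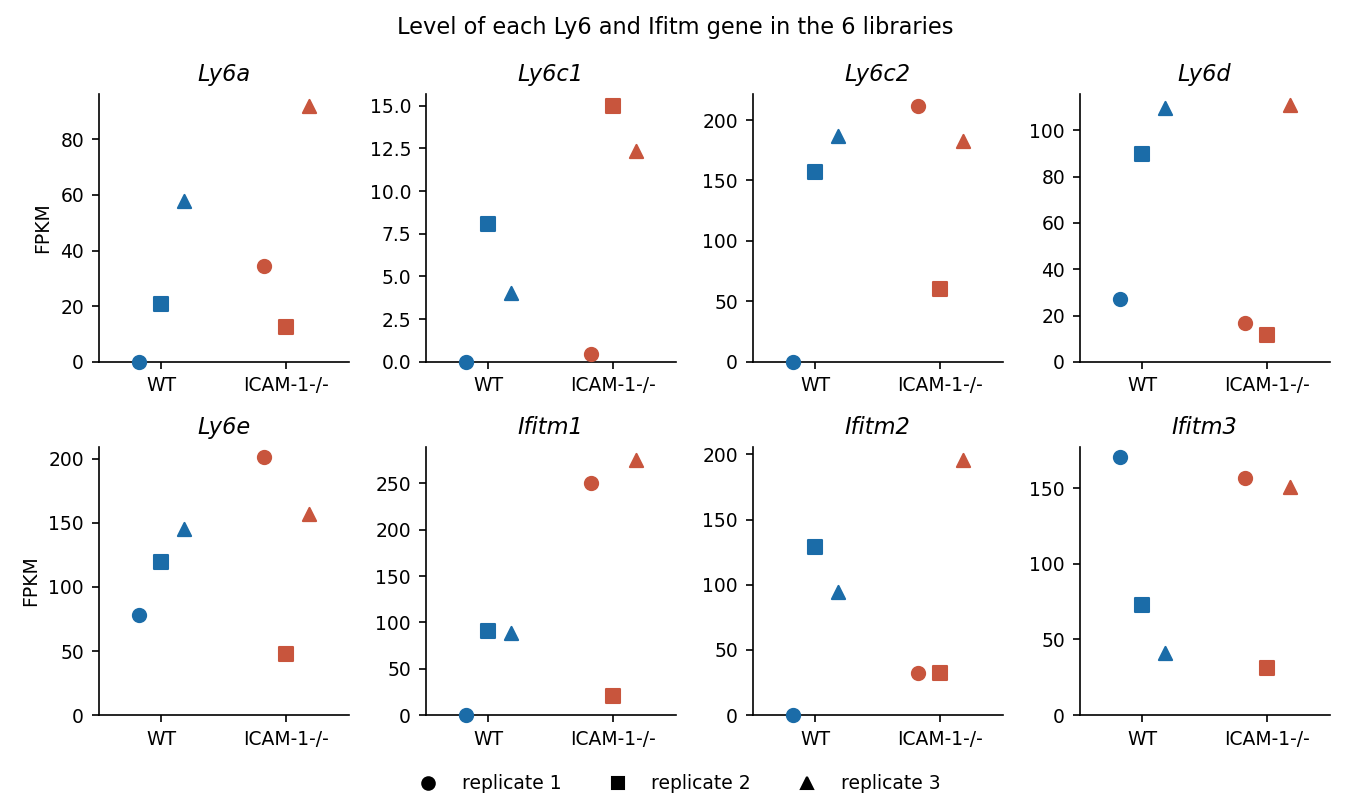
FPKM (vertical axes, each starting at 0) of the 8 genes in the 3 WT and 3 ICAM-1-/- libraries, 1 point per library, with the shape of the point giving the replicate number. In WT replicate 1, 5 of the 8 genes were listed at 0, and in every panel the points of the groups overlap.

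Ly6a, the Sca-1 gene, was read in 5 of the 6 libraries. The donor cells of WT recipients had 57.7 FPKM in replicate 3 and 20.8 FPKM in replicate 2, and the gene was listed at 0 in replicate 1. Those of ICAM-1-/- recipients had 91.8, 34.3 and 12.4 FPKM in replicates 3, 1 and 2. The highest and the lowest value above 0 were thus both in the ICAM-1-/- group, which overlapped WT. The log2 difference was 1.70 ± 1.36 (SE; 95% interval -1.28 to 4.68), with p = 0.6 in the exact permutation test (two-sided; 3 against 3 libraries cannot go below 0.1). Without WT replicate 1 the log2 difference was -0.019 ± 0.90 (SE), and within replicates 2 and 3 it was -0.021 ± 0.86 (95% interval -1.79 to 1.75). The cells had been sorted on the Sca-1 protein, so that the sort itself set a lower bound on the product of this gene in both groups. Fewer cells that transcribe a gene and less RNA per cell cannot be told apart in these bulk samples. Reads of Ly6a can be shared with its relatives: 31.9% of the 31-base words of its GENCODE M21 transcripts also occurred in transcripts of other genes, and 21.9% in those of Ly6c1.

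The Ly6C genes differed in level and in pattern. Ly6c2, the abundant gene of the pair, was listed at 0 in WT replicate 1 and was at 157 and 187 FPKM in WT replicates 2 and 3. Its levels were 211, 60.5 and 183 FPKM in ICAM-1-/- replicates 1, 2 and 3, so that all values other than those of WT replicate 1 and ICAM-1-/- replicate 2 lay between 157 and 211 FPKM. The log2 difference was 2.11 ± 1.66 (SE; 95% interval -1.54 to 5.76; exact permutation p = 0.6), and it was -0.37 ± 0.78 without WT replicate 1. Ly6c1 was a low gene, listed at 0 in WT replicate 1, at 8.07 and 4.03 FPKM in WT replicates 2 and 3, against 0.465, 15.0 and 12.3 FPKM across ICAM-1-/- replicates 1, 2 and 3. It was the only member that was higher in ICAM-1-/- replicate 2 than in any other library. Its log2 difference was 0.93 ± 1.21 (SE; 95% interval -1.73 to 3.58; exact permutation p = 0.5) and 0.0066 ± 1.14 without WT replicate 1. The ratio of Ly6c2 to Ly6c1 ran from 4.04 in ICAM-1-/- replicate 2 to 454 in ICAM-1-/- replicate 1, and was 14.8, 19.5 and 46.4 in ICAM-1-/- replicate 3, WT replicate 2 and WT replicate 3. The summed monocyte and macrophage markers were highest in WT replicate 1, where Ly6c2 was listed at 0, second in ICAM-1-/- replicate 1, where Ly6c2 was highest, and lowest in ICAM-1-/- replicate 2, where Ly6c2 had its lowest value above 0. Most of that sum in WT replicate 1 was C1qa, C1qb and C1qc, at 178, 569.7 and 248 FPKM. Ccr2, of the same list, was at 52.6 FPKM in ICAM-1-/- replicate 1, 35.4 FPKM in WT replicate 1 and 12.3 to 19.1 FPKM elsewhere. Of 7 endothelial markers, 3 were above 0 in WT replicate 1, 4 in ICAM-1-/- replicate 1, 3 in ICAM-1-/- replicate 2 and all 7 in the other 3 libraries. Their sum was 5.56 FPKM in ICAM-1-/- replicate 2, where Ly6c1 was highest, and 15.2 to 38.8 FPKM elsewhere. Pecam1 was the highest of them in every library, at 4.29 to 25.4 FPKM, Vwf reached 10.5 FPKM, Esam 5.49 FPKM and Kdr 4.87 FPKM, and Cdh5 was at most 1.18 FPKM. The part of either cell type in the Ly6C values was not tested.

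The pair is shown with the RefSeq windows from 250 bases before to 50 bases after the annotated start (GRCm38.p6, 5′ to 3′ in the direction of transcription), because the genes share part of their sequence but were read at very different levels. That of Ly6c1 is chr15:75048788-75049087 and that of Ly6c2 is chr15:75111922-75112221, both on the minus strand. RefSeq lists another, overlapping window for each gene, and the first listed is printed.
Ly6c1: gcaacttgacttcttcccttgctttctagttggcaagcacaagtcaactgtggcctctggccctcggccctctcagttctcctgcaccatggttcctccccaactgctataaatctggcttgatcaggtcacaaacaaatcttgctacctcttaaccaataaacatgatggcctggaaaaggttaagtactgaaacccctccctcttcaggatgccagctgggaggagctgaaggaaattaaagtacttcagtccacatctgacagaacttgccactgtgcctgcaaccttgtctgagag
Ly6c2: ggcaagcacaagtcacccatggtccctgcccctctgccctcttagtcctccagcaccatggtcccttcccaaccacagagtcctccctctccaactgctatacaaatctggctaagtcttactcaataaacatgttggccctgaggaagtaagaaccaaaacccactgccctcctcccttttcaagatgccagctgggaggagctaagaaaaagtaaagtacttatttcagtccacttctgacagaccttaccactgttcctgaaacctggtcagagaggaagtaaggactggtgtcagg
Over 266 aligned bases 78.2% were identical. Both strands were searched for an interferon-stimulated response element core (GAAA, any 2 bases, GAAA) and for the interferon gamma-activated sequence (TTCNNNGAA), and neither window held a match. Of 32851 windows of this length 3.44% held the first motif and 8.30% the second. Of the 31-base words of Ly6c1 transcripts 33.0% also occurred in Ly6c2, so the division of fragments between both genes by the authors' processing is uncertain, the low Ly6c1 values above all.

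Ly6d, the marker of B-primed lymphoid progenitors, was above 0 in every library. Cells from WT recipients had 27.1, 89.8 and 109.6 FPKM in replicates 1 to 3, or 75.5 ± 43.1 FPKM (SD, n = 3). Cells from ICAM-1-/- recipients had 16.7, 11.7 and 111 FPKM, or 46.4 ± 55.9 FPKM (SD, n = 3). ICAM-1-/- replicates 1 and 2 lay below every WT library, while ICAM-1-/- replicate 3 had the highest value of all. Ly6d was the only member with a negative log2 difference over the 6 libraries, -1.16 ± 0.95 (SE; 95% interval -3.25 to 0.92; exact permutation p = 0.4). The difference was -2.13 without ICAM-1-/- replicate 3 and -0.56 without ICAM-1-/- replicate 2, and it stayed below 0 in all 15 alternative settings. The fits without the filter, without the trend and blocked on the replicate number cannot change this difference, and all settings reuse the same libraries. Lymphoid genes gave the following values beside it. The 6 lymphoid progenitor markers summed to 481, 419.95 and 416 FPKM across WT replicates 1 to 3 and to 358, 251 and 415 FPKM in ICAM-1-/- replicates 1 to 3, of which Dntt, the terminal transferase, was 215 to 382 FPKM. Of these 6 genes 0 passed, 5 had log2 differences below 0 over the 6 libraries and all 6 within replicates 2 and 3. Among all 10477 tested genes, 4842 and 7239 were below 0 in these 2 comparisons. Rag1, a recombinase gene of lymphoid progenitors that was named after its values were seen, was at 15.2, 23.7 and 8.35 FPKM in the WT libraries and lower, at 4.82, 2.24 and 7.26 FPKM, in all 3 ICAM-1-/- libraries (log2 difference -1.53 ± 0.84, SE; limma adjusted p = 1.00). The part of these cells in the Ly6d values was not tested. None of the 31-base words of Ly6d occurred in another gene.

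Ly6e was above 0 in every library, as Ly6d was. It was at 78.4, 119.7 and 145 FPKM across WT replicates 1 to 3, or 114 ± 33.7 FPKM (SD, n = 3), against 202, 47.8 and 157 FPKM across ICAM-1-/- replicates 1 to 3, or 136 ± 79.2 FPKM (SD, n = 3). Both the highest and the lowest library belonged to the ICAM-1-/- group. The log2 difference of 0.053 ± 0.76 (SE; 95% interval -1.63 to 1.73; exact permutation p = 0.9) was the smallest of the 8 genes, and its sign turned when FPKM were rescaled without small RNA genes (-0.065).

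The Ifitm genes lie together on mouse chromosome 7, and they had unlike profiles. Ifitm3 was above 0 in all libraries: 170.4, 72.9 and 41.1 FPKM across WT replicates 1 to 3, or 94.8 ± 67.4 FPKM (SD, n = 3), against 157, 31.4 and 150.5 FPKM across ICAM-1-/- replicates 1 to 3, or 113 ± 70.6 FPKM (SD, n = 3). WT replicate 1, the library with most genes listed at 0, had the highest Ifitm3 value. The log2 difference was 0.18 ± 0.86 (SE; 95% interval -1.71 to 2.07; exact permutation p = 1). C1qb, a complement gene of macrophages, was at 569.7 and 258 FPKM in replicate 1 of the WT and ICAM-1-/- groups and at 4.59 to 40.7 FPKM in the other 4 libraries. Ifitm3 was high in both of these libraries and also in ICAM-1-/- replicate 3, where C1qb was 40.7 FPKM. The part of macrophage RNA in the Ifitm3 values was not tested.

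Ifitm1 was listed at 0 in WT replicate 1, at 91.2 and 88.2 FPKM in WT replicates 2 and 3, against 251, 21.1 and 276 FPKM across ICAM-1-/- replicates 1, 2 and 3. ICAM-1-/- replicates 1 and 3 thus lay above the WT libraries and ICAM-1-/- replicate 2 below WT replicates 2 and 3. Its log2 difference of 2.52 ± 1.62 (SE; 95% interval -1.05 to 6.09; exact permutation p = 0.5) was the largest of the 8 genes. It was 0.35 ± 1.06 without WT replicate 1 and -0.21 ± 0.83 within replicates 2 and 3. Ifitm2 was listed at 0 in WT replicate 1, at 129 and 94.5 FPKM in WT replicates 2 and 3, against 31.99, 32.0005 and 196 FPKM across ICAM-1-/- replicates 1, 2 and 3, the first 2 of which lay below WT replicates 2 and 3. The log2 difference was 1.37 ± 1.60 (SE; 95% interval -2.15 to 4.89; exact permutation p = 0.8) and -0.89 ± 0.88 without WT replicate 1. In ICAM-1-/- replicate 1 the level of Ifitm1 was 7.84 times that of Ifitm2, whereas it was 0.661 to 1.41 times that of Ifitm2 in the other 4 libraries where both were above 0. Of the 31-base words of Ifitm2, 55.5% occurred in other genes, so its values are uncertain. That share was 11.6% for Ifitm1 and 20.5% for Ifitm3.

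The windows around the starts of Ifitm2 and Ifitm3 are shown because both hold an interferon response element core and share parts of their sequence, while the ratio of their levels was uneven: Ifitm2 was 1.02 to 2.30 times Ifitm3 in 4 libraries, 0.204 times in ICAM-1-/- replicate 1 and listed at 0 in WT replicate 1. They are RefSeq's, on GRCm38.p6, at chr7:140955912-140956211 for Ifitm2 and chr7:141010695-141010994 for Ifitm3, both on the minus strand, and capitals mark matches to either motif on either strand.
Ifitm2: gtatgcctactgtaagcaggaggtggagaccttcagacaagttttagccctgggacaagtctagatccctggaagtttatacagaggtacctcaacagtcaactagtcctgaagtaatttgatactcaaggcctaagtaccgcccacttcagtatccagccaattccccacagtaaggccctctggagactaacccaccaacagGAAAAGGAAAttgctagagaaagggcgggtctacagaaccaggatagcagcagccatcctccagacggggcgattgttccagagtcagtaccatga
Ifitm3: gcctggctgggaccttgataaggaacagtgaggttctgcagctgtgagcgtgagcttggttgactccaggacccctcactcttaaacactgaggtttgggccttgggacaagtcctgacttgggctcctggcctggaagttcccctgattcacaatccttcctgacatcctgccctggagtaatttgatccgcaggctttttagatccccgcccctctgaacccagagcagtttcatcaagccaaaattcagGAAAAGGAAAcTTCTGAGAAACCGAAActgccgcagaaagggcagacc
Ifitm2 held 1 match to the response element core, upstream of the start. Ifitm3 held 2 matches after the start, and 1 match to the gamma-activated sequence that lies between them and overlaps the second. The Ifitm1 window held neither motif. Over 220 aligned bases the Ifitm2 and Ifitm3 windows were 64.5% identical. Of the 8 genes 5 had a window in the table, which were those of the Ly6c and Ifitm genes, while Ly6a, Ly6d and Ly6e did not.

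Position within a library does not depend on how the library was scaled. It does depend on the number of genes above 0, which was 6512 in WT replicate 1 and 10238 to 13920 in the others. Ly6e lay between percentiles 93.8 and 98.6 of the genes above 0 in all 6 libraries, and Ly6c2 between 95.04 and 98.6 in the 5 libraries where it was above 0. Ifitm3 lay between 90.4 and 98.1 in all 6. Ly6a ranged from 78.6 to 95.6 and Ly6d from 70.4 to 97.2, with ICAM-1-/- replicates 1 and 2 and WT replicate 1 at 70.4, 77.7 and 75.9 for Ly6d and the other 3 libraries at 96.4 to 97.2. Ly6c1 spread most widely, from 3.45 in ICAM-1-/- replicate 1 to 81.1 in ICAM-1-/- replicate 2.

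**Figure D2:**
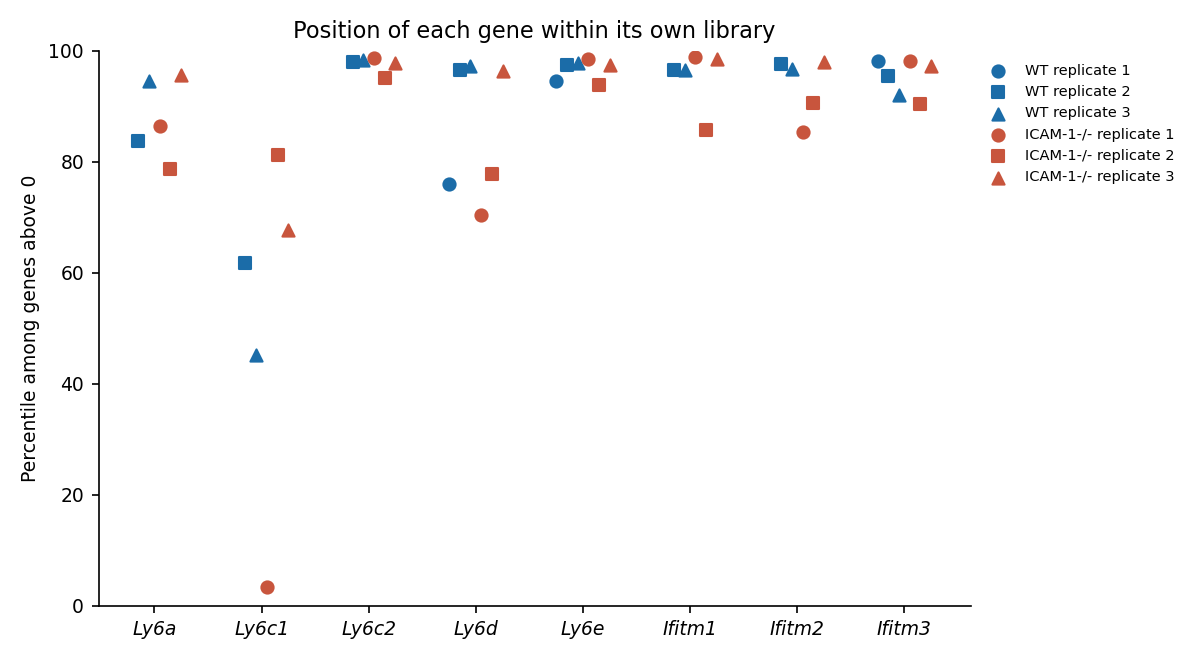
Percentile of each gene among the genes above 0 in the same library (vertical axis, 0 to 100), 1 point per library, with colour for the group and shape for the replicate number. Values listed at 0 have no point, and Ly6e stays between 93.8 and 98.6 while Ly6c1 runs from 3.45 to 81.1.

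By mean FPKM over the 6 libraries, which is a level per length, the order was Ly6c2, Ly6e, Ifitm1, Ifitm3, Ifitm2, Ly6d, Ly6a and Ly6c1. Over the 5 libraries other than WT replicate 1 the means ran from 160 ± 58.7 FPKM (SD, n = 5) for Ly6c2, through 145 ± 111 for Ifitm1, 134 ± 56.8 for Ly6e, 96.7 ± 69.4 for Ifitm2, 90.5 ± 59.6 for Ifitm3 and 67.7 ± 49.6 for Ly6d, to 43.4 ± 32.01 for Ly6a and 7.97 ± 5.91 for Ly6c1. No neighbours in the order of the 6 libraries differed beyond their spread: in 7 exact two-sided sign-flip tests of the log2 differences within libraries, p ranged from 0.125 to 1 (Benjamini-Hochberg adjusted p = 0.656 to 1), where 0.03125 is the smallest that 6 libraries allow. Ly6c2 was above Ly6e in 5 of 6 libraries, all but WT replicate 1, and Ly6a above Ly6c1 in 4 of 6. The order depended on the scale and on WT replicate 1. By mean rank over the 6 libraries, with values of 0 ranked too, Ly6e came first, followed by Ifitm3, Ly6d, Ly6c2, Ifitm1 and Ifitm2. Ly6e, Ifitm3 and Ly6d were the members above 0 in WT replicate 1, and Ly6c2 ranked above Ly6d in each of the other 5 libraries. After rescaling without small RNA genes Ly6e came before Ly6c2 and Ifitm3 before Ifitm1. Ly6a and Ly6c1 were last in all 3 orders.

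The share of a gene in the summed FPKM of its family compares the members within a library. Ly6d made up 25.7%, 22.7% and 21.8% of the Ly6 sum across WT replicates 1 to 3 and 3.59%, 7.94% and 20.0% in ICAM-1-/- replicates 1 to 3. The WT shares, 23.4% ± 2.05 (SD, n = 3), and the ICAM-1-/- shares, 10.5% ± 8.50 (SD, n = 3), did not overlap, but ICAM-1-/- replicate 3 lay close to WT. The exact permutation p was 0.1, the smallest possible, and the adjusted p was 0.64 over the 8 shares tested. In WT replicate 1 the Ly6 sum was made of Ly6d and Ly6e alone, with Ly6a, Ly6c1 and Ly6c2 listed at 0. Any value above 0 for these genes would lower the Ly6d share there, so the lack of overlap may depend on them. For the other 7 shares exact permutation p was 0.4 to 0.9. Ly6c2 made up 32.9% to 45.5% of the Ly6 sum in the 5 libraries where it was above 0, and Ly6a 5.26% to 16.5%. Among the Ifitm genes, Ifitm3 was the whole of the sum in WT replicate 1 and 18.4% to 37.1% in the other libraries, and Ifitm2, at 31.5% to 44.0% in 4 of the 5 libraries where it was above 0, was at 7.28% in ICAM-1-/- replicate 1.

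**Figure D3:**
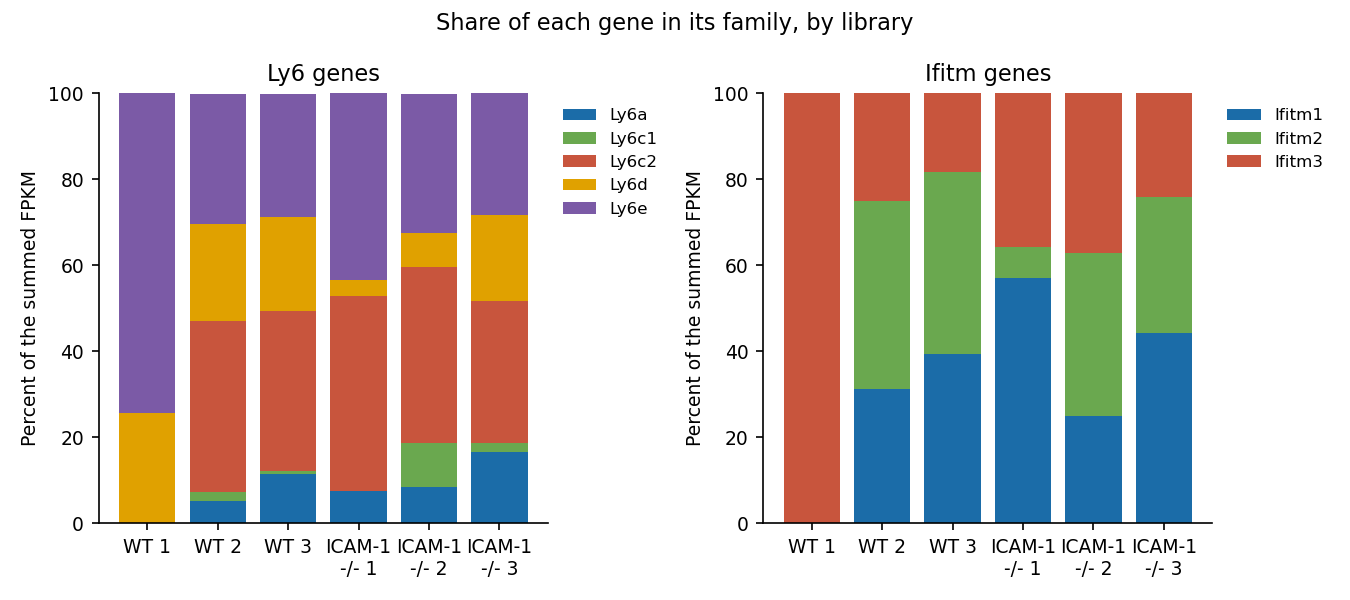
Stacked bars of the percent that each gene contributes to the summed FPKM of the 5 Ly6 genes (left) and of the 3 Ifitm genes (right), 1 bar per library. The Ly6d part is 21.8% to 25.7% in WT and 3.59% to 20.0% in ICAM-1-/- libraries, and WT replicate 1 holds 2 Ly6 genes and 1 Ifitm gene only.

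**Figure D4:**
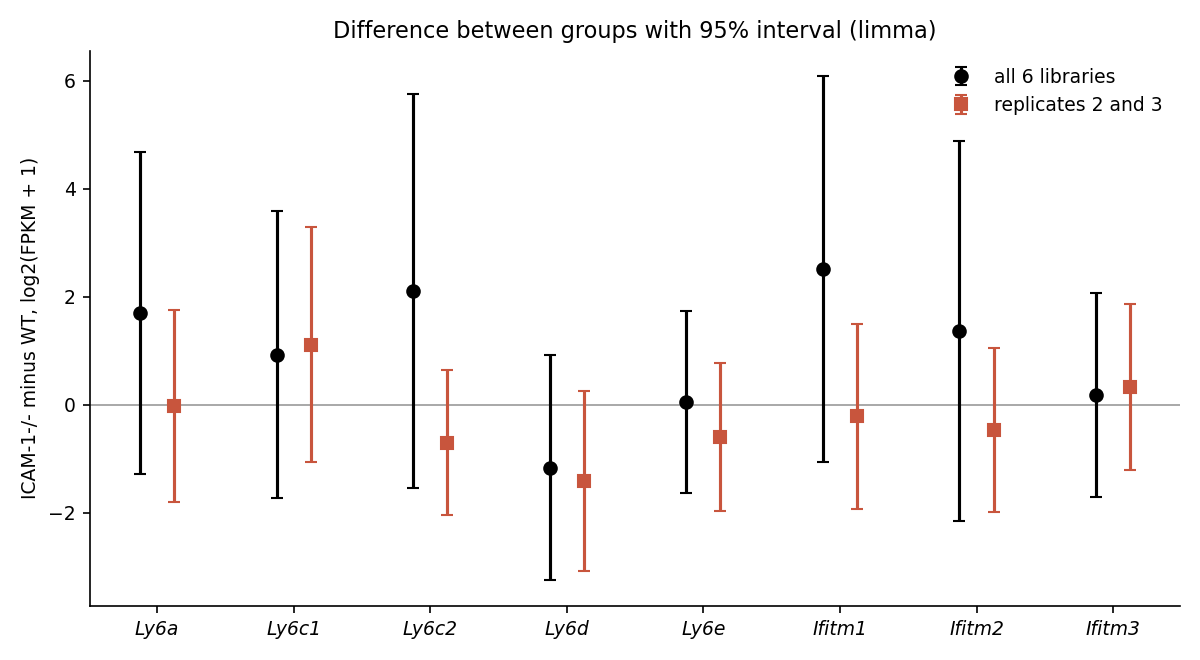
Difference of each gene on the log2(FPKM + 1) scale (positive where ICAM-1-/- was higher), with the 95% interval of the limma fit as bars, over all 6 libraries (black circles) and within replicates 2 and 3 (red squares). Every interval crosses 0, and the intervals of all 8 genes narrow when replicate 1 of both groups is left out.

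Few other genes of these families reached the level for testing. Of 27 further Ly6 and related (uPAR) genes in the deposited data, 5 reached the level for testing, 0 passed in either direction, and their median log2 difference was 0.26, beside 0.079 for all tested genes. Cd177, a neutrophil surface gene, was at 8.39, 18.7 and 2.84 FPKM in the WT libraries, against 0, 1.14 and 6.16 FPKM in the ICAM-1-/- libraries, in the order of replicates 1 to 3 (log2 difference -1.84 ± 1.05). The urokinase receptor gene Plaur had a log2 difference of 1.68 ± 1.07, Ly6i one of 1.30 ± 1.07 and the complement regulator Cd59a one of 0.26 ± 1.33 (SE). Of 6 further Ifitm and related genes only Ifitm6 was tested. It was at 0, 43.7 and 32.6 FPKM across WT replicates 1 to 3 against 0, 0 and 8.63 FPKM across ICAM-1-/- replicates 1 to 3. The log2 difference, -2.43 ± 1.497 (SE), did not pass (limma adjusted p = 1.00). Within replicates 2 and 3 both ICAM-1-/- libraries lay below both WT libraries, and the log2 difference was -3.64. Of all 10477 tested genes 7239 were below 0 in this comparison, with a median of -0.30. The share of tested genes that parted as Ifitm6 did was not counted. ICAM-1-/- replicate 2 lay below WT replicates 2 and 3 and ICAM-1-/- replicate 3 for 76.8% of them. Ifitm6 is known from myeloid cells of the mouse. The 9 neutrophil markers summed to 606, 2198 and 656 FPKM in the WT libraries, against 188, 298 and 1332 FPKM in the ICAM-1-/- libraries, in the order of replicates 1 to 3, and their part in the Ifitm6 values was not tested.

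Genes that make and attach the GPI anchor, on which Ly6 proteins depend, gave no call. Of 26 tested 0 passed in either direction, 14 had positive and 12 negative log2 differences, and the median was 0.20. Pigf, an anchor ethanolamine phosphate transferase subunit, was at 0, 13.0 and 2.91 FPKM in the WT libraries, against 6.81, 96.5 and 7.61 FPKM in the ICAM-1-/- libraries, in the order of replicates 1 to 3 (log2 difference 2.30 ± 1.25). Dpm2, a subunit of dolichol-phosphate-mannose synthase, had 1.69 ± 1.18, Pigc of the first step of synthesis -1.38 ± 0.97 and the transferase Pigo 1.16 ± 0.97 (SE).

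Genes that carry or dampen the interferon signal to Ly6a, Ly6e and the Ifitm genes did not pass either. Among those that dampen it are Socs1, Socs3, Usp18, Ptpn1 and Ptpn2, so the counts and the median pool both kinds. All 20 were tested, 9 having positive and 11 negative log2 differences with a median of -0.071. Irf8, a factor of myeloid and dendritic fate, was at 194, 156 and 129 FPKM in the WT libraries, against 170.0, 26.3 and 136 FPKM in the ICAM-1-/- libraries, in the order of replicates 1 to 3 (log2 difference -0.88 ± 0.82). The interferon factor subunit Irf9, the receptor chain Ifnar1 and the phosphatase Ptpn1 had log2 differences of 0.98 ± 1.11, 0.91 ± 1.05 and -0.78 ± 1.01 (SE). Of 19 other interferon-induced genes tested, which encode surface, membrane, secreted and intracellular proteins, 0 passed, with a median of 0.35 and 11 above and 8 below 0. Ifi27l2a had 1.87 ± 1.18, the checkpoint ligand gene Cd274 1.45 ± 0.94, Isg20, an exonuclease, 1.21 ± 1.05 and Il18bp, a secreted binder of interleukin 18, 0.99 ± 0.81 (SE). Within replicates 2 and 3 the medians of these lists were -0.42 for GPI anchor genes, -0.45 for interferon signalling and -0.24 for the other interferon-induced genes, beside -0.30 for all tested genes. Enzymes that modify Ifitm proteins, the ubiquitin ligase Nedd4, the palmitoyl transferase Zdhhc20, the methyl transferase Setd7 and the protease Zmpste24, which works with Ifitm3, had log2 differences of -0.62 ± 0.77, 0.089 ± 0.92, -0.0018 ± 0.90 and -0.40 ± 0.77 (SE). Their median was -0.20, and 0 of 4 passed.

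Genes of most similar profile were sought among 9642 named genes by the root mean square distance between log2(FPKM + 1) profiles over the 6 libraries, each centred on its own mean. For Ly6a these were Imp3, Nsmce1, Atp5c1, Commd1 and Adk, at distances of 0.42 to 0.46. No other member was as near: Ifitm2 was the nearest member at 0.90, in position 523. Khsrp, H2afx and Safb were nearest to Ly6e (0.089 to 0.10), and Cyb5, Ppp1r16a and Cobra1 to Ifitm3 (0.20 to 0.24). For Ly6c2 the nearest were Uqcrq, Mrpl34 and Psmb9 (0.27 to 0.36), for Ifitm1 Uqcr10, Lsm3 and Cd52 (0.36 to 0.49), and for Ifitm2 Arpc3, Snrpd2 and Hist1h2ac (0.23 to 0.38). Ly6d was nearest to Snx15, Sc5d and Stk40 (0.34 to 0.37) and Ly6c1 to Rnf125, Pglyrp2 and Ttc32 (0.24 to 0.29). Among the members themselves Ly6c2 and Ifitm1 were the nearest pair, at 0.74, and Ly6c2 and Ifitm3 the farthest, at 3.19. Ly6c2 and Ifitm1 were both listed at 0 in WT replicate 1, as were 39.6% of tested genes, and Ifitm3 was highest there. Distances between members are not given without that library. The neighbours named above were not stable. Within replicates 2 and 3, 0 of the 5 genes named for Ly6a were still among its 5 nearest. Of the 3 named for each other member 1 was kept for Ifitm1 and 0 for the other 6. With a pseudocount of 0.1 FPKM, 1 of 3 was kept for Ly6c1, Ly6d and Ifitm3.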

How the data were processed

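The authors deposited gene-level FPKM values, 1 column per library, matched to samples by title. The submitters' processing notes name Cutadapt, TopHat2 2.0.11 and Cufflinks 2.1.1. Genome build and annotation: not given in the sources used here. Each library's read depth is unknown, since FPKM are model estimates that keep no counts: 297 positive values were under 0.001 FPKM.

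Values were analysed as log2(FPKM + 1), a scale that understates changes of low genes, keeping the 10477 genes whose mean reached 1 FPKM, with limma 3.58.1 in R 4.3.3: group as the only term, an intensity trend, and p adjusted by Benjamini-Hochberg over all tested genes at 0.05. Single values were compared by exact permutation tests in SciPy 1.17.1. Members and gene lists were chosen with earlier results of these data known, and so were the alternatives. Named genes were the 8 members, up to 4 genes per list of smallest p, and the 5 (Ly6a) or 3 (other members) genes of nearest profile, without clone-like names and small RNA genes.

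Replicate numbers 1 to 3 occur in both groups. Deviations from group means correlated at 0.35, 0.13 and 0.31 between same-numbered libraries, all over 0.1, so the numbers were taken to pair the samples. The pairing comes from the data, not the labels. WT replicate 2 correlated as well with ICAM-1-/- replicate 3 (0.31). ICAM-1-/- replicate 2 correlated more with WT replicate 3 (0.15) than with WT replicate 2 (0.13), so the pairing of replicates 2 and 3 is uncertain. Other settings tried were pseudocounts of 0.1 and 0.5 FPKM, no filter, 2 scalings, no trend, library weights, the replicate block, leaving out each library, and replicates 2 and 3 alone. Promoter windows were matched by symbol to RefSeq on GRCm38.p6, and transcript words of 31 bases came from GENCODE M21. Biopython 1.88 aligned the windows. A B cell marker list is not reported here.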

Additional observations from a re-analysis of the deposited data

How the results depend on the processing

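No member passed in any of 15 alternative settings, and the lowest adjusted p, 0.419, was that of Ifitm1 with the replicate block. With the block, limma called 13 of all genes, none of them a member, in a fit whose prior df was infinite, which gives every gene the spread of the trend. There Ifitm1 and Ly6c2 had unadjusted p of 0.00188 and 0.00695, where 2.65% of tested genes were under 0.05. Both genes were listed at 0 in WT replicate 1. Log2 differences within the pairs of replicates 1, 2 and 3 were 7.98, -2.06 and 1.63 for Ifitm1. For Ly6c2 they were 7.73, -1.36 and -0.033. The block changed no member's call. Library weights gave 4 calls, none of them a member, and moved the log2 difference to 1.28 for Ifitm3 (unadjusted p = 0.0205 and adjusted p = 0.955 in limma), 0.19 for Ly6c2, 0.14 for Ifitm2, 1.00 for Ly6a, 1.48 for Ifitm1, 0.22 for Ly6c1, 0.27 for Ly6e and -0.64 for Ly6d. Replicates 2 and 3 alone gave 3 calls, and leaving out 1 library gave 0 to 1. Within replicates 2 and 3 the sign turned for Ly6a (-0.021), Ly6c2 (-0.70), Ly6e (-0.60), Ifitm1 (-0.21) and Ifitm2 (-0.46), and after rescaling without small RNA genes for Ly6e (-0.065). Leaving out 1 library moved the log2 difference of Ly6a between -0.019 and 2.92, Ly6c2 between -0.37 and 3.41, Ly6e between -0.35 and 0.68, Ifitm2 between -0.89 and 2.61, and Ifitm3 between -0.29 and 0.93. The sign of Ly6a, Ly6c2 and Ifitm2 turned without WT replicate 1 alone among the left-out libraries, that of Ly6e also without ICAM-1-/- replicates 1 or 3, and that of Ifitm3 without WT replicate 3 or ICAM-1-/- replicates 1 or 3. The cause was not tested. Median-of-ratios scaling moved the median of all genes to 0.24 and turned no member's sign. Read depth is unknown, so counting error could not be set against the spread between libraries.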

Other observations

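Ly6e was 1.32 to 1.42 times Ly6d in WT replicates 2 and 3 and in ICAM-1-/- replicate 3, 2.89 times in WT replicate 1, 4.08 times in ICAM-1-/- replicate 2 and 12.1 times in ICAM-1-/- replicate 1. Ly6c2 was 1.99 to 7.56 times Ly6a in the 5 libraries where both were above 0. Ifitm1 was 1.25 to 2.15 times Ifitm3 in 4 libraries and 0.673 times in ICAM-1-/- replicate 2.

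The remaining marker lists gave these sums over the libraries. Endothelial markers summed to 5.56 to 38.8 FPKM, erythroid markers to 0.00454 to 78.4 FPKM, dendritic cell markers to 211 to 459 FPKM, and T and NK cell markers to 67.4 to 219 FPKM. Of the last, Nkg7 was listed at 0 in WT replicate 1 and was at 48.2 to 194 FPKM in the other 5 libraries. The 12 stem and progenitor genes summed to 173 to 455 FPKM. The lowest sum was that of WT replicate 1, where 7 of the 12 were above 0 and Ptprc, the CD45 gene, was at 93.2 FPKM.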
